A study of Mus musculus with 3 samples.

Results

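PD-1 negative Il7r memory CD8 T cells were taken from all 3 single-cell libraries by their own UMIs (unique molecular identifiers, each standing for 1 captured RNA molecule). A cell was counted when it had at least 1000 UMIs, less than 10% mitochondrial UMIs, at least 1 UMI of Cd3d, Cd3e or Cd3g, at least 2 of Cd8a and Cd8b1 together, none of Cd4, at most 1 of Cd79a, none of Pdcd1 (the gene of PD-1), at least 5 of Ccl5, at least 1 of Il7r and none of Gzma or Gzmb. This rule held for 240 of the 26142 cells past the first 2 limits, 40 in replicate 1, 96 in replicate 2 and 104 in replicate 3. Those 12 genes chose the cells, so their values are given as a description and were neither tested nor counted.

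The study sorted live CD45+ cells from dispersed pancreatic islets of untreated female wild-type NOD mice, the non-obese diabetic strain in which T cells destroy the insulin-producing beta cells. The mice were 15 to 16 weeks old, each library pooled 2 to 3 of them, and there was no other genotype or treatment. Libraries were made with 10x 3′ chemistry and held 33851381, 74775394 and 80806452 UMIs in 5844, 9537 and 11566 cells. The 3 libraries served as replicates, and which of them came from the same of the 2 experiments is not given in the sources used here.

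Memory CD8 T cells persist after an antigen response and answer a second encounter quickly. The IL-7 receptor, encoded in part by Il7r, delivers a survival signal on which naive and memory T cells depend, and many effector cells lose it. The chemokine gene Ccl5 is off in naive CD8 T cells and is kept on as message in memory and effector cells, while PD-1 marks recent or lasting stimulation through the antigen receptor. In islets, PD-1 restrains self-reactive CD8 T cells.

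Replicate 1 stood apart from the others. Its cells had a median of 4291 UMIs against 6522 and 5606.5, and a median of 1.94% mitochondrial UMIs against 4.19% and 3.89%. Mki67, a proliferation marker, was at 145 CPM (counts of the gene scaled to the summed UMIs of its group) in the other CD8 cells of replicate 1, and at 15.8 and 20.1 CPM in those of replicates 2 and 3. The counts of higher and lower genes over all genes tested, against all other CD8 cells and against the first 2 sets of neighbours, are therefore also given without it, but counts over gene lists are not. Between 12 and 29 cell barcodes were shared by each pair of libraries, and none of them belonged to the 240 cells. Scrublet, which marks likely doublets, marked 9 of the 240 cells (3.75%) and 301 of the other CD8 cells (9.18%), and marked cells were kept.

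Among cells with at least 2 Cd8a and Cd8b1 UMIs and none of Cd4, they made up 6.25% of 640 in replicate 1 (exact binomial 95% interval 4.502 to 8.41%), 7.32% of 1312 in replicate 2 (5.97 to 8.86%) and 6.64% of 1567 in replicate 3 (5.45 to 7.98%). The 3 intervals overlapped and cover counting error only. The mean was 6.73% ± 0.54 (SD, n = 3). Of the 3519 CD8 cells, 3246 also had a Cd3 UMI and at most 1 of Cd79a, 2218 of those had no Pdcd1 UMI, 639 then had 5 or more Ccl5 UMIs, 301 had Il7r and 240 had neither granzyme. Median depth was 4870, 8424 and 7625.5 UMIs in the 240 cells against 5335.5, 7460.5 and 6384 in the remaining 3279 CD8 cells. The upper limit of 6000 UMIs per cell in the methods of the study would remove 175 of the 240 cells. Under all cell limits of the study the shares of CD8 cells were 7.63%, 3.61% and 3.64%, so that replicate 1 then lay above the others.

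Ccl5 counts among otherwise like cells ran from 0 to 266 UMIs per cell. Among CD8 T cells with Il7r and without Pdcd1, Gzma or Gzmb UMIs, 780 had no Ccl5 UMI, 100 had 1 or 2 and 194 had 20 or more. Just outside the threshold, 18 cells had 3 or 4 Ccl5 UMIs, and just inside it 12 cells had 5 or 6. Nkg7, a granule gene, was at 56.5 CPM in the former and 231 CPM in the latter, Cxcr3 at 75.4 and 66.0 CPM and Lef1 at 333 and 275 CPM. In the chosen cells Ccl5 ran from 5 UMIs over a median of 32.5 to 112 in replicate 1, from 6 over 70.5 to 266 in replicate 2 and from 5 over 45.5 to 230 in replicate 3. Il7r was thinner, with a median of 3 UMIs per cell in each library, and it rested on a single UMI in 17.5%, 25.0% and 29.8% of the cells. Zero UMIs of Pdcd1 or a granzyme in a cell of this depth does not show that the cell lacked the message.

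**Figure D1:**
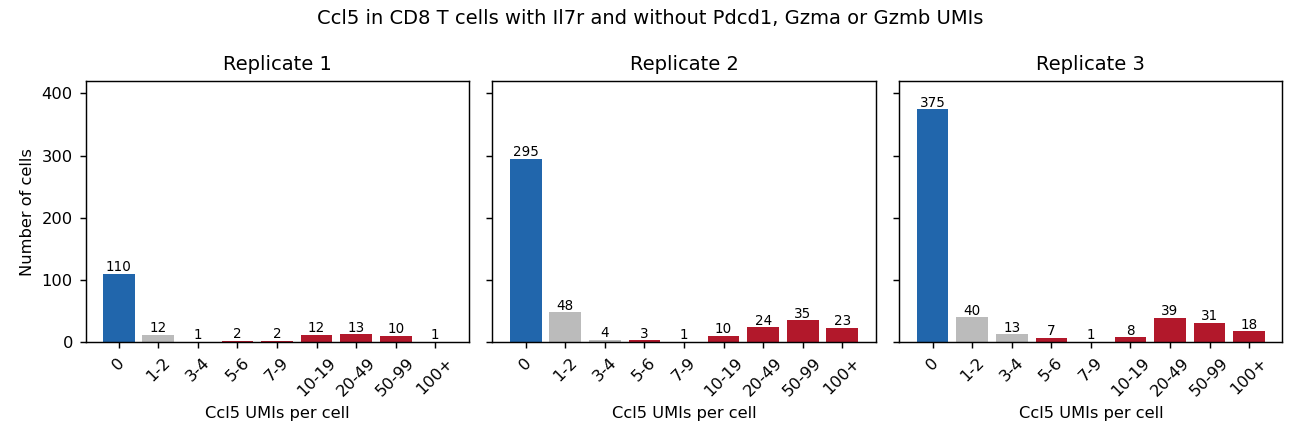
Number of cells (y axis) by Ccl5 UMIs per cell (x axis, bins of unequal width) in each replicate, among CD8 T cells with Il7r and without Pdcd1, Gzma or Gzmb UMIs. Blue bars are the 780 cells without Ccl5, grey bars cells with 1 to 4 UMIs, and red bars the 240 PD-1 negative Il7r cells, most of which had 20 UMIs or more.

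The label was checked on genes outside the rule. Trbc2, a constant gene of the T-cell receptor beta chain, was detected in 238 of the 240 cells and Trac, of the alpha chain, in 212. Trdc, of the delta chain, was detected in 6 cells, but the gamma chain constant genes Tcrg-C2 and Tcrg-C4 were detected in 20 and 21, and 43 of the 240 cells had a UMI of at least 1 gamma or delta constant gene. Ncr1, an NK-cell receptor, was detected in 1 cell and Foxp3, which marks regulatory T cells, in 1. Memory markers were partly present. Cxcr3, Eomes and Cd44 were all above the level in cells without Ccl5, though Cxcr3 and Cd44 differed little in replicate 1, as given below. Eomes rested on 53 UMIs in the cells without Ccl5, so its level is a description only. Ly6c2, a surface marker often used for mouse memory CD8 cells, had 0 UMIs among 1963946 in total. Its level in other cells is not given here, so this 0 is not read as a trait of these cells. The residency markers Itgae, Itga1 and Zfp683 had 8, 15 and 2 UMIs over all 240 cells.

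UMIs were summed over the 240 cells of a library and compared with the sum over the remaining 3279 CD8 cells, with the library as a block. Of 9101 genes tested outside the rule, 371 (4.08%) passed an adjusted p of 0.05 in edgeR's quasi-likelihood test with Benjamini-Hochberg adjustment, 204 (2.24%) higher and 167 (1.83%) lower in PD-1 negative Il7r cells. The median log2 fold change over all genes was -0.01. Among genes at 50 CPM or more in the higher group, Klra1, a killer lectin-like receptor gene, and the IL-18 receptor genes Il18rap and Il18r1 ranked highest by fold change, and inhibitory receptor and B-lineage genes were among the lower ones. Leaving out replicate 1 gave 245 higher and 205 lower genes, leaving out replicate 2 gave 11 and 32, and leaving out replicate 3 gave 130 and 144. DESeq2 called 55 and 60.

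Both chains of the IL-18 receptor were higher in these cells. IL-18 is a cytokine that, together with IL-12, can drive interferon-gamma from memory T cells without antigen. Il18rap, the signalling chain (mm10 chromosome 1, 40515362 to 40551705), was at 52.7, 78.8 and 74.8 CPM in replicates 1 to 3 of the PD-1 negative Il7r cells and at 13.7, 17.7 and 19.8 CPM in the other CD8 cells, a log2 fold change of 2.12 (SE 0.19, adjusted p = 1.04e-07, edgeR). Il18r1, the ligand-binding chain and its neighbour on the same strand (40465552 to 40500854), was at 130, 129 and 109 CPM against 51.3, 39.9 and 47.2 CPM, a log2 fold change of 1.53 (SE 0.15, adjusted p = 4.28e-07). For both genes every library of the first group lay above every library of the second. Both kept their call under all 14 alternative settings, with log2 fold changes of 2.00 to 2.39 for Il18rap and 1.33 to 1.90 for Il18r1. Il12rb2, the signalling chain of the IL-12 receptor, was at 52.7, 33.1 and 36.8 CPM against 6.61, 23.7 and 21.3 CPM (log2 fold change 1.08, SE 0.30, adjusted p = 0.039, edgeR), but it kept its call under only 3 of 13 alternatives, with adjusted p up to 0.71.

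Klra1 had the largest log2 fold change of the genes named as higher. It belongs to the Ly49 receptors, which recognise MHC class I on NK cells and some T cells, and lies on chromosome 6 (130363917 to 130386874). It was at 56.8, 46.8 and 49.9 CPM against 7.49, 5.91 and 7.12 CPM in the other CD8 cells, a log2 fold change of 2.99 (SE 0.24, adjusted p = 2.3e-08, edgeR), with no overlap between the groups. Ly49 genes are near-identical copies, so reads may have been shared between them and the identity of the member is uncertain. The call was lost under 1 of 14 alternatives, the cell limits of the study, under which replicate 2 had 9 PD-1 negative Il7r cells and was too small to enter the fit. Its log2 fold change was 1.21 there (SE 1.09). Of 11 killer lectin-like and innate-like receptor genes tested, 4 were higher (Klra1, Klrc1, Klrc2 and Klrk1), 1 was lower (Tyrobp, an adaptor of NK and myeloid cells) and 6 did not pass, and the list's median log2 fold change was -0.20. Klrk1 was called under only 5 of 14 alternatives and Klrc2 under 7. Klrc1, which encodes the inhibitory receptor NKG2A, was at 89.2, 168 and 150 CPM against 81.7, 75.5 and 104 CPM, and replicate 1 of the PD-1 negative Il7r cells lay within the range of the other cells.

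Granule genes split. Gzmm, a granzyme outside the rule, was at 36.5, 36.6 and 38.0 CPM against 3.96, 5.91 and 6.14 CPM (log2 fold change 2.82, SE 0.29, adjusted p = 7.87e-07, edgeR). Gzmk, a granzyme of memory-type CD8 cells, was at 93.3, 173 and 286 CPM against 84.8, 118 and 134 CPM (log2 fold change 0.81, SE 0.15, adjusted p = 0.00162), so that replicate 1 differed little. Fasl, the death ligand, the granule protein Ctsw and the proteoglycan Srgn were also higher, of which Srgn was called under only 3 of 14 alternatives. Of the 14 genes of this list that were tested 5 were higher, 1 was lower (Cx3cr1, which rested on 1 UMI in the PD-1 negative Il7r cells) and 8 did not pass, with a list median of 0.13. Among the latter, the pore-forming protein Prf1 was at 56.8, 48.0 and 41.6 CPM against 28.9, 40.4 and 42.8 CPM.

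Of 9 chemokine and lipid receptor genes tested, 2 were higher (Gpr183 and Ptger4), 2 were lower (Ccr9 and Ccr6) and 5 did not pass. The list median was 0.14, and Cxcr3 and Cxcr6 were counted in other lists. Gpr183, an oxysterol receptor that guides lymphocytes within lymphoid tissue, was at 146, 226 and 236 CPM against 79.3, 90.1 and 103 CPM (log2 fold change 1.28, SE 0.13, adjusted p = 1.07e-06, edgeR). Cxcr3, the receptor for interferon-induced chemokines, was at 64.9, 151 and 137 CPM against 59.0, 55.0 and 58.0 CPM (log2 fold change 1.25, SE 0.17, adjusted p = 4.65e-05). The difference in Cxcr3 lay in replicates 2 and 3. Cxcr6, a chemokine receptor of tissue T cells, was at 73.0, 104 and 71.3 CPM against 158, 160 and 146 CPM (log2 fold change -0.77, SE 0.15, adjusted p = 0.00248), but against only those CD8 cells that had no Pdcd1 UMI its log2 fold change was 0.24. Ccr9 and Ccr6 were lower, but they rested on 7 UMIs and 1 UMI in the PD-1 negative Il7r cells and passed the filter on low counts through the other CD8 cells, which also held the B-lineage RNA given below. The prostaglandin receptor Ptger4 was higher but called under only 5 of 14 alternatives.

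**Figure D2:**
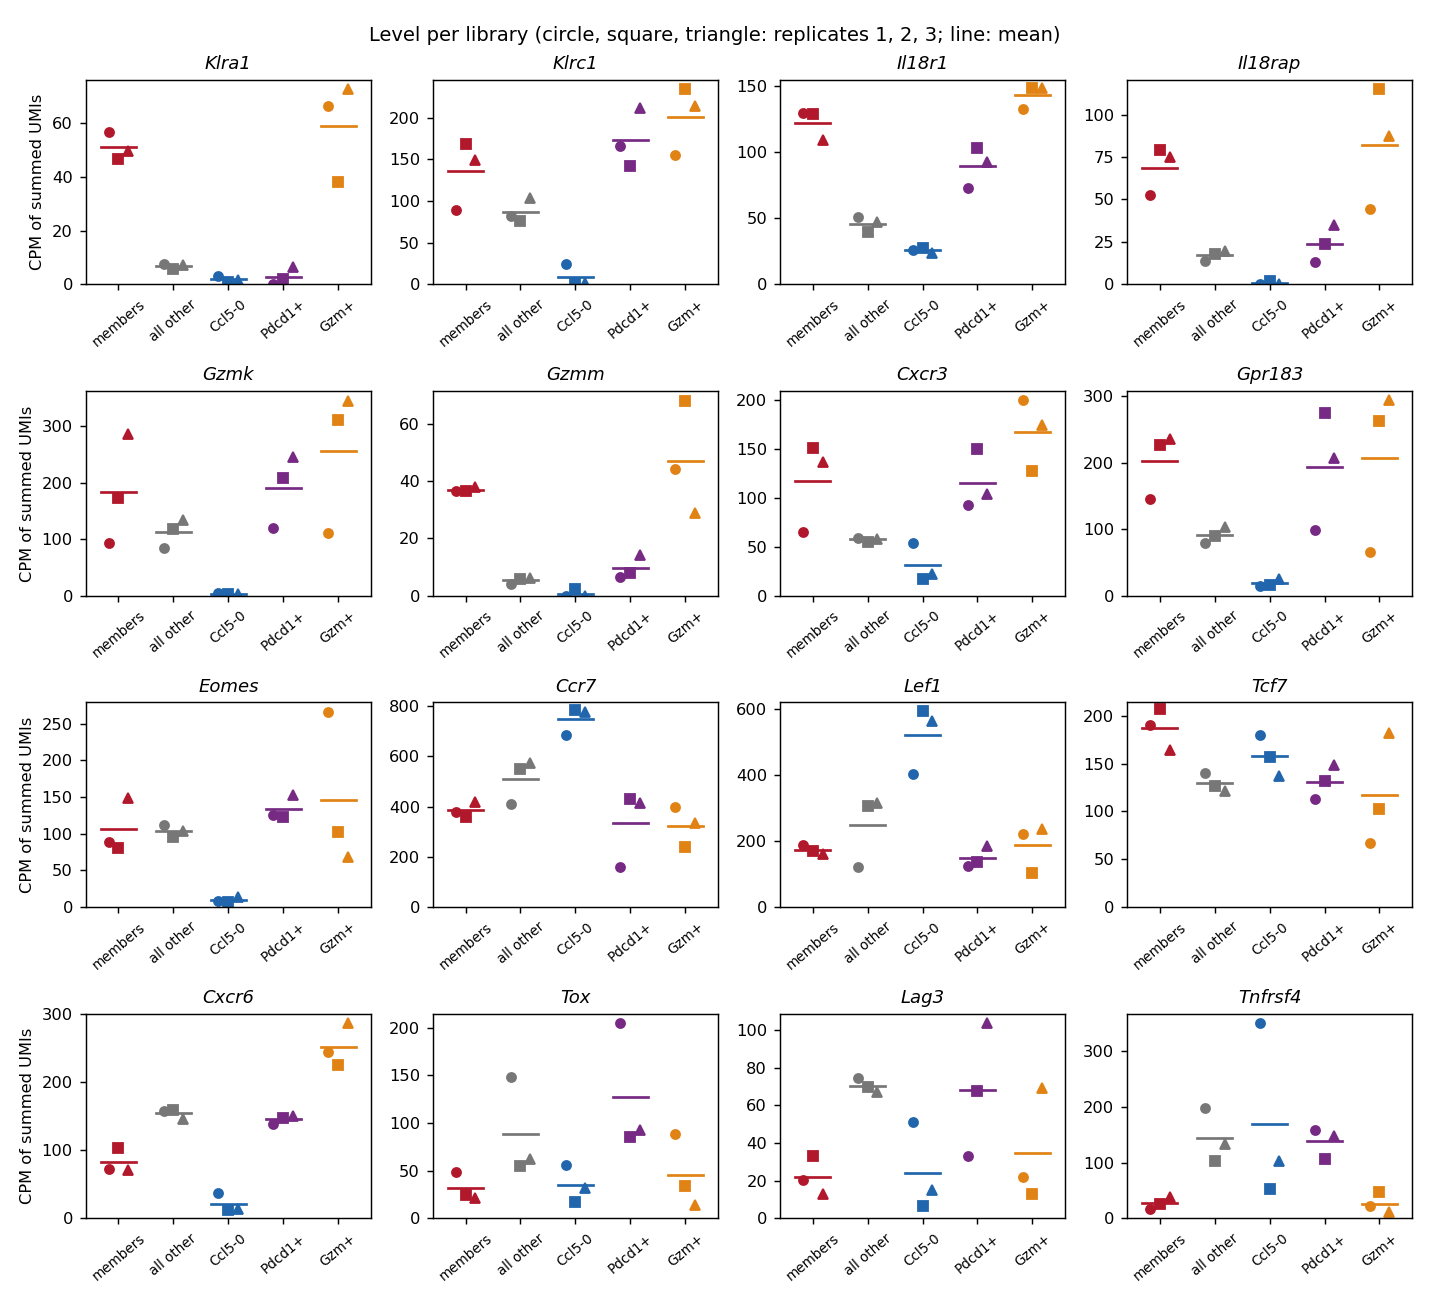
Level of 16 genes in CPM of summed UMIs (y axis, from 0) in PD-1 negative Il7r cells (members), all other CD8 cells, and the neighbours without Ccl5, with Pdcd1 or with a granzyme. Each point is 1 library and each line the mean of 3. Klra1 and Il18rap of the members lie above all other CD8 cells in every library, and Tnfrsf4 lies below them.

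Of 15 inhibitory receptors and regulators of exhaustion tested, 8 were lower, 0 were higher and 7 did not pass, and the list's median log2 fold change was -0.86. The rule had removed Pdcd1-positive cells from 1 side only. Against only those CD8 cells that had no Pdcd1 UMI, all 8 lost their calls, with log2 fold changes of -0.59 for Tox (adjusted p = 0.181, edgeR), -0.64 for Lag3 (0.305), -0.43 for Ctla4 (0.186), -0.82 for Cd200 (0.0779) and -0.21 for Ikzf2 (0.72). Tox, a transcription factor of exhausted T cells, was at 48.7, 25.1 and 21.4 CPM against 148, 54.8 and 62.5 CPM (log2 fold change -1.31, SE 0.20, adjusted p = 0.000148, edgeR). Lag3, an inhibitory receptor for MHC class II, was at 20.3, 33.1 and 13.1 CPM against 74.7, 69.4 and 66.8 CPM (log2 fold change -1.50, SE 0.23, adjusted p = 0.000195), with no overlap. Tox was called under 12 of 14 alternatives and Lag3 under 11. Ctla4, Cd200 and Ikzf2 were also lower, each called under 9 of 14 alternatives. The remaining 3 lower genes rested on weaker calls. Havcr2 and Entpd1 were each called under 6 of 13 alternatives and Tox2 under 5 of 13, with adjusted p up to 0.872, 0.999 and 0.707, and Havcr2 was higher in 1 of the 3 libraries. Tigit did not pass, with 20.3, 14.9 and 9.501 CPM against 18.3, 13.5 and 12.6 CPM (log2 fold change 0.05, SE 0.32), and it rested on 26 UMIs in the PD-1 negative Il7r cells. Cd226, which competes with TIGIT for ligand, did not pass either (log2 fold change -0.03, SE 0.29).

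Genes that respond to the antigen receptor did not move together. Of 16 tested, 3 were lower (Tnfrsf4, Tnfrsf9 and Irf8), 1 was higher (Dusp5) and 12 did not pass, with a list median of -0.06. Irf8 kept its call under 6 of 14 alternatives, with log2 fold changes as small as -0.11 (adjusted p up to 0.931). Tnfrsf4 (OX40) was at 16.2, 26.3 and 39.2 CPM against 199, 102 and 134 CPM (log2 fold change -2.01, SE 0.21, adjusted p = 9.17e-07, edgeR), kept its call under all 14 alternatives and did not overlap. Tnfrsf9 (4-1BB) was at 44.6, 57.1 and 83.1 CPM against 129, 128 and 150 CPM (log2 fold change -0.98, SE 0.16), but against only those CD8 cells that had no Pdcd1 UMI its log2 fold change was 0.0376 and did not pass. Cd28, the receptor that T cells carry before stimulation, was higher at 458, 355 and 385 CPM against 333, 235 and 259 CPM (log2 fold change 0.64, SE 0.11), as was Ifngr1, a chain of the interferon-gamma receptor. The proliferation genes Mki67 and Birc5 were 2 of 10 cell cycle genes tested that were lower, and none was higher. Mki67 kept its call under 8 of 13 alternatives and Birc5 under 6 of 12. Against only those CD8 cells that had no Pdcd1 UMI both lost it. Their log2 fold changes were then -1.02 (adjusted p = 0.069, edgeR) and -1.23 (0.185).

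Genes of naive and central memory cells showed no common direction against the other CD8 cells. Of 17 tested, 3 were higher (Tcf7, Klf3 and Dgka), 2 were lower (Dapl1 and Igfbp4) and 12 did not pass, with a list median of -0.08. Tcf7, a transcription factor of self-renewing T cells, was at 191, 207 and 164 CPM against 141, 126 and 121 CPM (log2 fold change 0.64, SE 0.13, adjusted p = 0.00407, edgeR). It kept its call under 8 of 14 alternatives, with log2 fold changes of 0.40 to 0.69 and adjusted p up to 0.999. Of 18 memory and survival genes tested, 5 were higher (Il18r1, Il18rap, Cd28, Ifngr1 and Cxcr3), 0 were lower and 13 did not pass, with a list median of 0.46. Of 8 GTPases of the Gimap family, which support lymphocyte survival, 4 were higher, but Gimap3 and Gimap6 were each called under only 4 of 14 alternatives. Ribosomal protein genes were a large part of the higher genes, 52 of 91 tested, each by a small amount (log2 fold changes of 0.14 to 0.40). The median ribosomal share per cell was 37.8%, 38.7% and 38.0% in the PD-1 negative Il7r cells against 31.9%, 37.6% and 36.7% in the other CD8 cells.

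The rest of the higher genes named by rank were Ctla2b, Serpinb9, an inhibitor of granzyme B, Hopx, Sidt1 and Mctp2, with log2 fold changes of 1.12 to 1.15. Ctla2b has a near-identical copy, Ctla2a, so its reads may be shared.

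Most of the genes with the largest fall came from other lineages. Mzb1, Ighg1, Ebf1, Ighg2b, Igkc, Jchain and Igha are genes of B and plasma cells, and Hist1h1b encodes a histone of dividing cells. Mef2c and Slpi completed the ranked names. Of 11 B-cell markers tested, 8 were lower, with a list median of -2.51. The 11 markers summed to 2745, 247 and 1031 CPM in the PD-1 negative Il7r cells and to 8286, 5152 and 3837 CPM in the other CD8 cells, which had not been cleared of Cd79a. When the other cells also had to carry Cd3 and at most 1 Cd79a UMI, 155 genes were higher and 103 lower, Mef2c, Slpi and Cd79b changed sign. The fall of Hist1h1b (log2 fold change -2.54, SE 0.20, edgeR) was not lost there.

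Within the 240 cells, some of the RNA of other lineages sat in single cells. In replicate 1, 88.5% of the B-cell marker UMIs and 84.7% of the myeloid marker UMIs lay in 1 cell each, and in replicate 3, 82.0% of the B-cell marker UMIs lay in 1 cell. In replicate 2, 91.7% of the islet endocrine and acinar marker UMIs lay in 1 cell, mostly as Ppy. Of the NK-cell marker UMIs, 84.6% in replicate 1 (11 of 13), 80.0% in replicate 2 (16 of 20) and 36.7% in replicate 3 lay in 1 cell each. Elsewhere, the cell with the most held 12.04% of the B-cell marker UMIs in replicate 2, 5.78% and 22.6% of the myeloid marker UMIs in replicates 2 and 3, and 18.8% and 19.05% of the endocrine and acinar marker UMIs in replicates 1 and 3. The 7 gamma-delta T-cell markers summed to 93.3, 101 and 29.7 CPM, with 110, 53.8 and 83.1 CPM in the other CD8 cells. NK-cell markers summed to 52.7, 22.8 and 35.6 CPM, mostly Tyrobp, and CD4 T-cell markers to 20.3, 18.3 and 8.31 CPM. Leaving out every cell with 5 or more Cd74 UMIs or any gamma-delta constant gene UMI, an alternative chosen after the data were seen, gave 71 higher and 66 lower genes against the other CD8 cells, of which 69 and 51 were among the 204 and 167.

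The first neighbours met the whole rule except that they had no Ccl5 UMI. There were 110, 295 and 375 of them, with median depths of 4206, 6685 and 5917 UMIs. Of 6168 genes tested, 343 (5.56%) passed an adjusted p of 0.05 in edgeR's quasi-likelihood test, 204 (3.31%) higher and 139 (2.25%) lower in PD-1 negative Il7r cells. Il18r1 was higher, and the naive-cell genes Lef1 and Ccr7 were lower. Klra1, Klrc1, Il18rap, Gzmk and Gzmm were also called, but passed the filter on low counts through the groups with Ccl5, as given below. Without replicate 1 the counts were 251 and 198, without replicate 2 they were 98 and 64, and without replicate 3 they were 63 and 28. DESeq2 called 138 and 74, and dropping the library block gave 88 and 45.

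Il18rap, Gzmk, Klrc1, Klra1 and Klrc2 were the leading higher genes against cells without Ccl5. All 5 were thin in those cells and passed the filter on low counts through the groups with Ccl5, so no fold change is given. Il18rap was at 0, 1.89 and 0.413 CPM there, on 5 UMIs in all, and Gzmk at 4.94, 3.30 and 3.31 CPM. Klrc1 had 23 UMIs there against 295 in the PD-1 negative Il7r cells, and Klra1 had 8 against 97. None of the 5 genes overlapped between the groups, but they were ranked for the same direction in 3 libraries, so this adds no support. Of the 19 killer lectin-like and innate-like genes, 8 passed the filter on low counts, several of them only through their level in the PD-1 negative Il7r cells, so a count over the list has little meaning here. Klrk1, Klre1 and Cd7 were higher beside Klra1, Klrc1 and Klrc2. Granule genes are subject to the same limit, with Gzmm on 5 UMIs and Gzmk on 18 in the cells without Ccl5. Nkg7, which those cells did carry, was at 466, 284 and 265 CPM against 209, 48.6 and 46.7 CPM (log2 fold change 2.05, SE 0.21).

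Of 16 genes of naive cells and central homing tested, 10 were lower, 0 were higher and 6 did not pass, with a list median of -0.65. Lef1, a transcription factor of naive cells, was at 187, 170 and 160 CPM against 403, 594 and 563 CPM (log2 fold change -1.66, SE 0.17, adjusted p = 8.8e-06, edgeR). Ccr7, the receptor for entry to lymph nodes, was at 377, 361 and 418 CPM against 686, 784 and 776 CPM (log2 fold change -1.004, SE 0.17), and Klf2, which controls exit from tissue, at 478, 385 and 334 CPM against 647, 788 and 667 CPM (log2 fold change -0.87, SE 0.13). For these 3 genes the groups did not overlap. Tcf7 was among the 6 that did not pass, with a log2 fold change of 0.23 (SE 0.15). S1pr1, Satb1, Bach2, Foxp1, Dapl1, Rapgef6 and Igfbp4 were the other lower genes.

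Of 18 memory genes tested against cells without Ccl5, 7 were higher, 0 were lower and 11 did not pass. Eomes, a T-box factor of memory and effector cells, was at 89.2, 81.1 and 148 CPM against 8.23, 7.55 and 13.2 CPM. It rested on 53 UMIs in the cells without Ccl5 and passed the filter on low counts through groups with Ccl5. No fold change is therefore given for it. Cd44, the adhesion receptor of antigen-experienced cells, was at 89.2, 83.4 and 81.9 CPM against 80.6, 18.4 and 33.1 CPM (log2 fold change 1.25, SE 0.29, adjusted p = 0.0132, edgeR). The difference in Cd44 lay in replicates 2 and 3. Cxcr3, Il18r1, Il18rap, Cd28 and Id2 were the others, of which Il18rap passed the filter on low counts only through groups with Ccl5. Of 8 residency genes tested, 3 were higher (Cxcr6, Rgs1 and Xcl1), 0 were lower and 5 did not pass. Cxcr6 was at 37.8, 11.8 and 13.6 CPM in the cells without Ccl5 and passed the filter on low counts largely through groups with Ccl5. Of 7 chemokine and lipid receptor genes tested, 3 were higher, among them the inflammatory chemokine receptor Ccr2. Of 7 survival genes of the BCL2 family tested, 3 were higher (Bcl2l1, Bcl2a1b and Bcl2a1d). The last 2 are copies of 1 another whose reads may be shared. Of the 11 inhibitory genes tested, 1 was higher (Nfatc1) and 0 were lower.

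Interferon-response genes were lower in 7 of 18, and 0 were higher, with a list median of -0.61. Gbp2, an interferon-induced GTPase, was at 89.2, 151 and 154 CPM against 161, 436 and 365 CPM (log2 fold change -1.31, SE 0.16, adjusted p = 7.02e-05, edgeR). Ifngr2, the second chain of the interferon-gamma receptor, ranked first among the lower genes at 8.11, 4.57 and 19.002 CPM against 54.3, 88.2 and 86.4 CPM. It was thin in the PD-1 negative Il7r cells and passed the filter on low counts largely through the cells without Ccl5. No fold change is therefore given for it. Ifngr1 did not pass (log2 fold change 0.30, SE 0.12). Ctsl, Tnfrsf4, Rgcc and Trib2 completed the ranked lower genes. Ctsl was also thin, at a mean of 13.3 CPM in the PD-1 negative Il7r cells. Of the 7 gamma-delta genes Tcrg-C2, Tcrg-C4 and Trgv2 passed the filter on low counts, largely through the groups where they were high, so that their being higher here is no result. The 7 markers of gamma-delta T cells summed to 93.3, 101 and 29.7 CPM against 23.0, 7.08 and 6.20 CPM, and B-cell markers to 2745, 247 and 1031 CPM against 475, 312 and 1053 CPM. When cells with Cd74 or gamma-delta UMIs were left out, 202 genes were higher and 169 lower, 175 and 130 of them shared with the counts above.

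**Figure D3:**
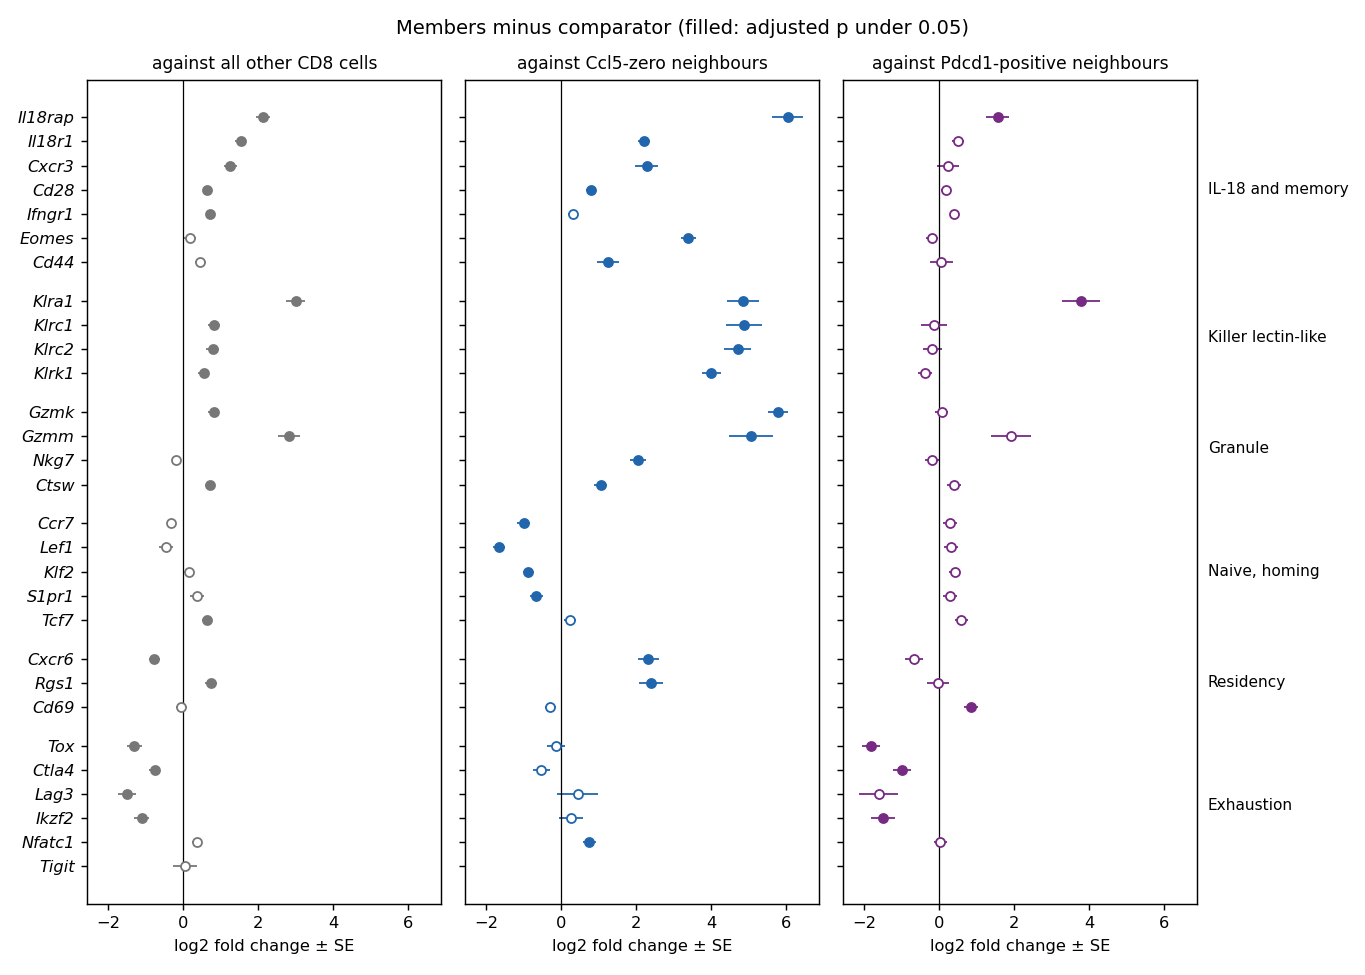
Log2 fold change of PD-1 negative Il7r cells over each comparator (x axis, bars are 1 SE from edgeR) for genes grouped by role (y axis). Filled points passed an adjusted p of 0.05. A gene without a point was not tested. The 3 panels share the sums of the PD-1 negative Il7r cells, so they are not independent. Klra1 and Il18rap are filled in the panel of all other CD8 cells. Both were nearly absent from neighbours without Ccl5, and so was Klra1 from Pdcd1-positive neighbours. Their points in those comparisons are no result. Against neighbours without Ccl5, Eomes, Gzmk, Gzmm, Klrc1, Klrc2 and Cxcr6 also passed the filter on low counts largely through groups with Ccl5. Il18rap against Pdcd1-positive neighbours passed it largely through the PD-1 negative Il7r cells.

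The second neighbours met the rule except that they carried Pdcd1. They were few, with 24, 51 and 74 cells. Of 6168 genes, 101 (1.64%) passed an adjusted p of 0.05 in edgeR's quasi-likelihood test, 78 (1.26%) higher and 23 (0.373%) lower in PD-1 negative Il7r cells. Without replicate 1 there were 74 and 33, without replicate 2 there were 23 and 8, and without replicate 3 there were 23 and 12. Dropping the library block left 1 and 3 genes, so these calls depend on the pairing of cells within a library. Scrublet marked 21 of these 149 neighbours (14.1%). Their B-cell markers summed to 337, 4906 and 690.3 CPM, with 61.1% of the UMIs in 1 cell in replicate 2, and their gamma-delta markers to 159, 83.6 and 148 CPM. Without doublets there were 91 higher and 20 lower genes, and without cells with Cd74 or gamma-delta UMIs there were 65 and 25.

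Klra1 was nearly absent from Pdcd1-positive neighbours, with 0, 1.99 and 6.38 CPM on 5 UMIs in all. It passed the filter on low counts through the PD-1 negative Il7r cells, so no fold change is given. Il18rap was at 13.2, 23.9 and 35.1 CPM (log2 fold change 1.55, SE 0.31, adjusted p = 0.0144) and kept its call under 5 of 10 alternatives, with adjusted p up to 0.383, while Il18r1, at 72.8, 104 and 92.5 CPM, did not pass (log2 fold change 0.50, SE 0.16). Il18rap reached that filter in all 3 libraries only in the PD-1 negative Il7r cells, and it was ranked for the same direction in 3 libraries. That these cells did not overlap the neighbours in Il18rap or Klra1 therefore adds no support. Txk, a kinase of the antigen receptor pathway, and Mylip, which kept its call under 2 of 10 alternatives, were also among the ranked higher genes, and Cd69, Satb1 and Gimap4 were also higher.

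Of 11 inhibitory genes tested against Pdcd1-positive neighbours, 3 were lower (Tox, Ctla4 and Ikzf2), 0 were higher and 8 did not pass, with a list median of -1.50. Tox was at 205, 85.6 and 92.5 CPM in the neighbours (log2 fold change -1.82, SE 0.24, adjusted p = 0.000747, edgeR). Tnfrsf4 was at 159, 108 and 148 CPM there (log2 fold change -1.97, SE 0.40, adjusted p = 0.0144), and Tnfrsf9 was lower as well. Tnfrsf4 kept its call under 8 of 11 alternatives, with adjusted p up to 0.661. Ptch1, the Hedgehog receptor, Nrn1 and Tnfsf4, the ligand of OX40, were ranked among the lower genes, called under 9 of 10, 6 of 11 and 8 of 10 alternatives, with adjusted p up to 0.797 for Nrn1. Ptch1 and Tnfsf4 were thin in the PD-1 negative Il7r cells, at means of 8.17 and 12.5 CPM. Both passed the filter on low counts largely through other groups, so their calls over alternatives add no support. Ccl4, a chemokine of activated T cells, had the largest fall, but its size differed widely between libraries. It was called under 5 of 9 alternatives, with adjusted p up to 0.791. The neighbours were at 106, 938 and 22.3 CPM and the PD-1 negative Il7r cells at 0, 20.6 and 21.4 CPM, so the groups nearly met in replicate 3. Among the genes that did not pass were Gzmk (log2 fold change 0.07, SE 0.18), Cxcr3 (0.24, SE 0.30) and Eomes (-0.19, SE 0.17).

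The third neighbours met the rule except that they carried Gzma or Gzmb. Replicate 1 held only 7 of them and replicates 2 and 3 held 20 and 34, so they are given as levels. Klra1 was at 66.5, 38.2 and 72.6 CPM in them, Il18rap at 44.3, 115 and 87.1 CPM and Il18r1 at 133, 149 and 149 CPM, of which Klra1 and Il18rap overlapped the PD-1 negative Il7r cells. Cxcr6 was at 244, 225 and 287 CPM, above the 73.0, 104 and 71.3 CPM of the PD-1 negative Il7r cells in every library. In a fit with the granzyme-positive sums of replicates 2 and 3 only, chosen after the data were seen, 9 of 6721 genes (0.134%) passed in edgeR and all were lower in PD-1 negative Il7r cells. Cxcr6 was 1 of them (log2 fold change -1.60), as were Lgals1, S100a10, AW112010 and Hist1h2ae. No gene was called higher in PD-1 negative Il7r cells, with 262 at an unadjusted p under 0.05.

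Shares of cells with a UMI were compared after thinning each cell to 2000 UMIs, which left out 0 of the 240 cells and 4 of the 3279. With 3 libraries the exact sign-flip permutation test cannot go below p = 0.25, so no difference in share could pass. Tcf7 was detected in 27.5%, 30.2% and 32.7% of the PD-1 negative Il7r cells and in 24.5%, 21.5% and 22.3% of the other CD8 cells, higher in 3 of 3 libraries. Tox was detected in 7.5%, 2.08% and 3.85% against 26.6%, 9.95% and 10.2%, and Lag3 in 2.50%, 3.12% and 1.92% against 13.9%, 9.87% and 9.58%, both lower in 3 of 3. B cells, which should lack these genes, gave the background from free RNA, with 0.337% ± 0.0721 for Tcf7, 0.334% ± 0.306 for Tox and 0.193% ± 0.0359 for Lag3 (SD, n = 3). Their median depths before thinning were 4198, 6755 and 5869.5 UMIs.

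Shares with the lymph node homing genes differed in direction between libraries. Ccr7 was detected in 52.5%, 33.3% and 41.3% of the PD-1 negative Il7r cells against 39.9%, 54.6% and 55.8% of the other CD8 cells, and Lef1 in 25.0%, 28.1% and 25.96% against 19.6%, 41.9% and 40.9%. Both were higher in replicate 1 and lower in replicates 2 and 3, and for Lef1 the change lay in the other CD8 cells. Cxcr3 was detected in 15.0%, 25.0% and 23.1% against 13.7%, 8.72% and 9.71%, and Cxcr6 in 7.5%, 14.6% and 12.5% against 20.6%, 15.5% and 14.5%. Without thinning, the mean difference for Lef1 turned from -7.76 to 1.66 percentage points, that for Cxcr6 turned from -5.33 to 3.51, and that for Ccr7 shrank from -7.702 to -0.755, so no direction is read from these 3 shares. The share of B cells with a UMI was 1.04% ± 0.188 for Lef1, 0.724% ± 0.254 for Cxcr3 and 0.354% ± 0.237 for Cxcr6 (SD, n = 3). B cells carry Ccr7 themselves, with 53.8% ± 10.4, and give no background for it.

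**Figure D4:**
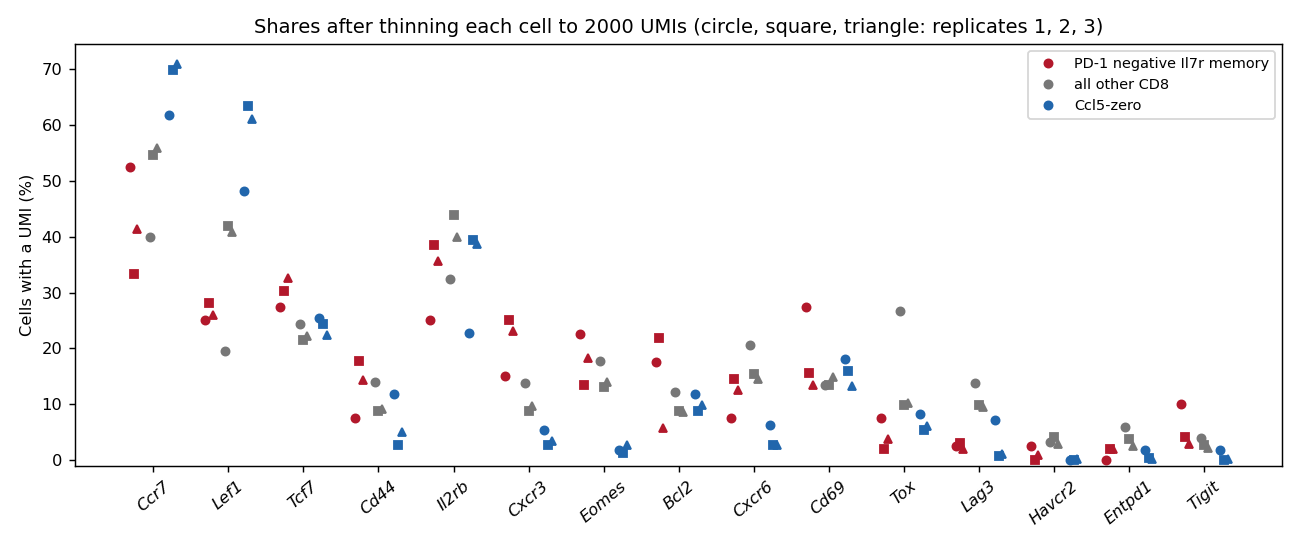
Percent of cells with at least 1 UMI (y axis) for 15 marker genes (x axis) after thinning each cell to 2000 UMIs, in PD-1 negative Il7r cells (red), all other CD8 cells (grey) and neighbours without Ccl5 (blue). Each point is 1 library. Tox and Lag3 are lower in the red than in the grey points of every library, and Ccr7 and Lef1 cross over in replicate 1.

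The 240 cells were not uniform, and some genes differed with the amount of Ccl5, itself a gene of the rule, while others did not. A split at 20 Ccl5 UMIs, chosen after values were seen and described without a test, put 16, 14 and 16 cells below it and 24, 82 and 88 at or above it. The split was on raw UMIs, and the cells of replicate 1 were the shallowest, with a median of 4870 UMIs. Gzmk had 0 UMIs in all 46 cells below the split, which allows up to 7.88 CPM by a floor of 3 counts over the group, and 415 UMIs in 127 of the 194 cells above it. Its levels above the split were 183, 208 and 330 CPM. Eomes was at 33.1, 67.6 and 53.6 CPM below the split and 143, 83.9 and 163 CPM above it.

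Klra1 lay the other way, at 82.7, 67.6 and 89.3 CPM below the split and 31.8, 42.6 and 43.8 CPM above it. Ccr7 was at 472, 460 and 616 CPM below and 286, 341 and 388 CPM above. In both of these genes each library was higher below the split. Klra1 below the split rested on 30 UMIs in 9 of the 46 cells, a share of 19.6% against 15.5% above the split and 0.897% of cells without Ccl5, where it was at 3.29, 0.944 and 1.65 CPM. Ccr7 was detected in 93.5% of cells below the split, 62.4% above it and 92.9% of cells without Ccl5. These shares of Klra1 and Ccr7 were not thinned, and depth differed between the parts. Median depth in replicates 1 to 3 was 5213.5, 10579 and 6914.5 UMIs below the split and 4278.5, 8016 and 7675 UMIs above it. Il18r1 stood between, at 82.7, 81.1 and 62.5 CPM below the split, 175, 139 and 116 CPM above it and 26.3, 27.4 and 23.6 CPM without Ccl5.

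Gzmm, Tcf7, Klrc1 and Il18rap showed no common direction across the split. Gzmm was at 36.8 CPM over the 46 cells below it and 37.3 CPM over the 194 above it, and Tcf7 at 218 and 179 CPM. Klrc1 and Il18rap were higher above the split in replicates 2 and 3, but in replicate 1 they were at 108 and 57.9 CPM below it and 71.6 and 47.7 CPM above it. Nkg7 was higher above the split in each library, at 372, 142 and 89.3 CPM below it and 557, 313 and 292 CPM above it. Cxcr3, Cxcr6 and Klrc2 were also higher above it in each library, and Lef1 was lower. In finer bins pooled over libraries, Nkg7 was at 231, 385, 157 and 323 CPM with 5 to 6, 7 to 9, 10 to 19 and 20 or more Ccl5 UMIs. The first of these bins held only 12, 4 and 30 cells, and the mix of libraries differed between bins.

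**Figure D5:**
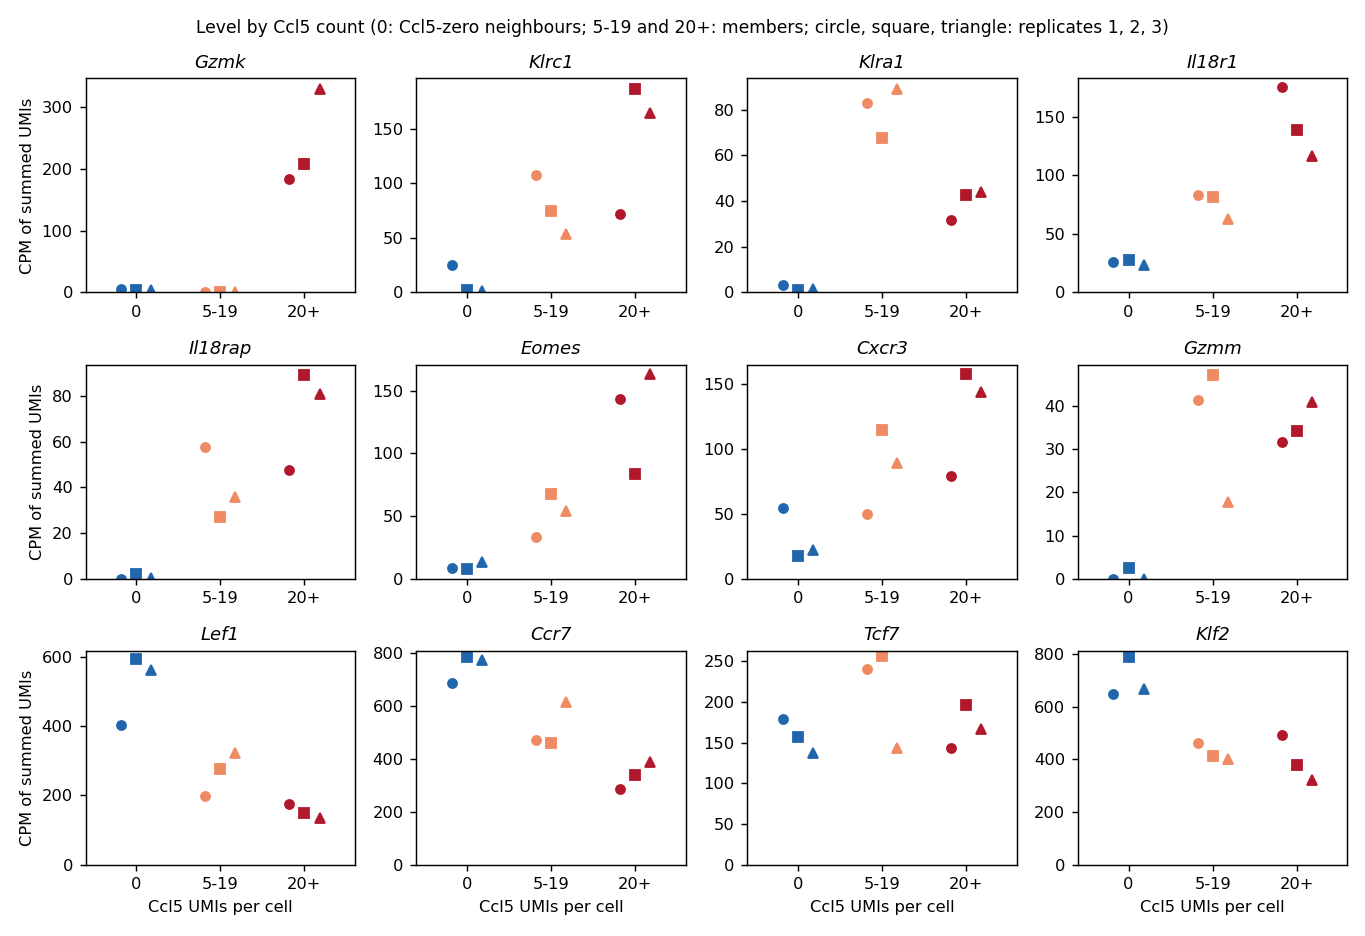
Level of 12 genes in CPM of summed UMIs (y axis, from 0) by Ccl5 UMIs per cell (x axis), in neighbours without Ccl5 (blue) and in PD-1 negative Il7r cells with 5 to 19 (orange) or 20 or more (red) Ccl5 UMIs. Each point is 1 library. Gzmk is at 0 in all 3 orange points, and Klra1 is higher in the orange than in the red point of every library.

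Variable genes of the T-cell receptor were read in a minority, since the 3′ chemistry seldom reaches them. A Trbv gene was seen in 61 of the 240 cells. Trbv19 was the one in 14 of those 61 (23.0%), in 83 of 830 (10.0%) among the other CD8 cells and in 19 of 183 (10.4%) among neighbours without Ccl5. It was singled out after its values were seen, and in replicate 3 it accounted for 9 of 22 cells, so the difference was not tested.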

How the data were processed

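Live islet CD45+ cells of 3 libraries were sequenced by the study with 10x 3′ chemistry. The deposited values are raw UMI counts, which the authors made with Cell Ranger 6.0.1 on mm10 per the submitters' processing notes. The deposited matrices hold 32285 genes and had no cell annotation. Gene positions came from GENCODE vM21 on the same build. The members, the gene lists and the comparisons were chosen with earlier results of these data known.

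UMIs were summed per library and group and tested with edgeR 4.0.16 (R 4.3.3; filterByExpr, TMM, quasi-likelihood, library as a block, Benjamini-Hochberg adjustment over all genes). A group with under 10 cells in a library was not fitted. Neighbours without Ccl5 and with Pdcd1 entered 1 fit with the PD-1 negative Il7r cells. Because libraries pooled 2 to 3 mice and entered as a block, p-values measure how the difference within a library varied between pools. They do not measure the spread between mice. The block was checked on 2476 genes. Sums of the same library deviated together (r from 0.08 to 0.81 over 18 pairs), and those of different libraries had a mean r of -0.22.

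The text names the 10 genes with the largest fold change per direction against all other CD8 cells and 5 against each set of neighbours (adjusted p under 0.05, 50 CPM or more, same direction in 3 libraries; no V, Gm or Rik genes), and genes of 24 lists. Some items are not reported here. Genes added after their values were seen are named as such. Doublets were marked with Scrublet in scanpy 1.11.5 (7.6% of each library) and kept, since leaving them out is an alternative. The scripts were tested on simulated data.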

Additional observations from a re-analysis of the deposited data

How the results depend on the processing

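Of the genes named against all other CD8 cells, 83 had passed the test. Given as higher and lower, without the replicate block, against the pairing of sums within a library, there were 7 and 13 genes against all other CD8 cells, 88 and 45 against neighbours without Ccl5 and 1 and 3 against Pdcd1-positive neighbours. DESeq2 with the block gave 55 and 60 against all other CD8 cells and 138 and 74 against neighbours without Ccl5. Without a filter on low counts there were 275 lower genes against all other CD8 cells, 259 lower against neighbours without Ccl5, and 124 and 106 against Pdcd1-positive neighbours. The cell limits of the study, which leave 29, 9 and 21 cells and so keep the PD-1 negative Il7r sum of replicate 2 out of the fit, gave 7 and 20, 62 and 58, and 1 and 3. Thinning to 1000 UMIs, which leaves fewer genes to test, gave 38 and 17, 49 and 79, and 34 and 6. Without Scrublet doublets 102 genes were lower against all other CD8 cells. With other cells carrying Cd3 and no more than 1 Cd79a UMI, 103 were lower, and without Cd74 or gamma-delta cells 71 and 66 were higher and lower. Leaving out 1 replicate gave 11 to 245 higher and 32 to 205 lower genes against all other CD8 cells, 63 to 251 and 28 to 198 against neighbours without Ccl5, and 23 to 74 and 8 to 33 against Pdcd1-positive neighbours. The cause of these shifts was not tested. Signs changed in 11 cases, none of which passed the test: Jchain 1.48, Tnfrsf9 0.0442, Gimap3 -0.0377 and Maf 0.34 under the limits of the study, Jchain 0.69 and Slpi 1.09 without Cd74 or gamma-delta cells, Mef2c 0.67, Slpi 0.55 and Cd79b 0.11 against cells with Cd3 and at most 1 Cd79a UMI, and Cxcr6 0.24 and Tnfrsf9 0.0376 against cells without Pdcd1 (log2 fold changes). The mean share of CD8 cells was 4.96% under the limits of the study and 5.10% with 2 or more Il7r UMIs, and 6.44% to 6.98% without 1 replicate. Differences in thinned shares (percentage points) were -7.702 for Ccr7, -7.758 for Lef1, 7.37 for Tcf7, 10.3 for Cxcr3, -5.33 for Cxcr6, -11.1 for Tox and -8.60 for Lag3. Without thinning they were 1.661 for Lef1 and 3.51 for Cxcr6, which both turned direction, -0.755 for Ccr7, 14.6 for Tcf7, 23.5 for Cxcr3, -18.7 for Tox and -17.9 for Lag3, and at 1000 UMIs 3.67 for Tcf7, 4.16 for Cxcr3, -5.62 for Tox and -4.97 for Lag3. Without 1 replicate, Ccr7 ran from -17.9 to -0.917, Lef1 from -14.3 to -4.17, Cxcr6 from -7.552 to -1.44, Tcf7 from 5.85 to 9.528, Cxcr3 from 7.31 to 14.8, Tox from -13.5 to -7.106 and Lag3 from -9.528 to -7.198.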
